A study of Drosophila melanogaster with 17 samples.

Results

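The cytosolic ribosome of the fly is built from a large and a small subunit, in which proteins surround the ribosomal RNAs, and most of these proteins are encoded by a single main gene whose symbol begins with RpL or RpS. The ribosomal protein genes were taken as every gene of the count table whose symbol matched that pattern and that had a count in at least 1 library, which gave 92 of the 16163 genes with a count. Of these, 78 were main copies (44 of the large subunit, 31 of the small subunit and the 3 acidic stalk genes RpLP0, RpLP1 and RpLP2), and 14 were listed as paralogues or relatives of a main copy. Transcripts of the main copies are abundant in growing cells and are usually made in step with each other, downstream of TOR and Myc. Loss of 1 dose of many of them gives the Minute phenotype of slow development and thin bristles.

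The libraries held poly(A) RNA from whole brains of Drosophila at 10 days of age. The neuronal driver nSyb-Gal4 expressed human tyrosyl-tRNA synthetase (TyrRS) in them, an enzyme mutated in a form of Charcot-Marie-Tooth neuropathy. The genotypes were TyrRS-E196K (the disease mutant, 1 transgene copy, n = 4), TyrRS-E196K∆NLS (the mutant with a disrupted nuclear localization signal, 3 copies, n = 4), TyrRS-WT (2 copies, n = 3), TyrRS-WT∆NLS (2 copies, n = 3) and the control nSyb-Gal4>+ with the driver and no TyrRS transgene (n = 3), so that copy number changed together with genotype. The driver is active in neurons, whereas the RNA came from all cells of the dissected brain, and in such samples fewer cells of a type and less RNA per cell cannot be told apart. Nothing in the labels says how many brains went into a library, so p-values measure the spread between these libraries. Reads of the human transgene are not counted in a table of fly genes, and its level was not analysed here. The paper reports that the transgenes driven by nSyb-Gal4 reached similar levels despite these copy numbers, with TyrRS-WT∆NLS slightly lower. For 1 TyrRS-WT∆NLS library the table gave the genotype but a number that matched no label, and it is called the unnumbered library.

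Depth ran between 29380481 counts on genes, in control 1, and 56030758 counts, in TyrRS-WT∆NLS 1. The study sequenced its libraries in 2 batches, and which library belonged to which batch was not given in the sources used here, so batch and genotype cannot be told apart. All 6 neuronal markers (elav, nSyb, brp, Syt1, para and fne) had counts in every library. Control 1 was the shallowest library and had the highest share of mitochondrially encoded transcripts, 9.11%, against 4.82% to 7.21% in the other 16 libraries. The parts of depth and batch in the results were not tested.

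The ribosomal protein genes took a large share of every library. They held 5.09% to 6.09% of the counts on genes in TyrRS-E196K libraries, 5.18% to 6.50% in TyrRS-E196K∆NLS, 4.91% to 6.07% in TyrRS-WT, 5.56% to 6.66% in TyrRS-WT∆NLS and 4.42% to 5.49% in control. All 3 TyrRS-WT∆NLS libraries lay above all 3 control libraries, and the ranges of the other genotypes overlapped that of control. Control 1 had the lowest share of all 17 libraries, and TyrRS-E196K∆NLS 3 and TyrRS-WT∆NLS 2 had the highest shares.

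**Figure D1:**
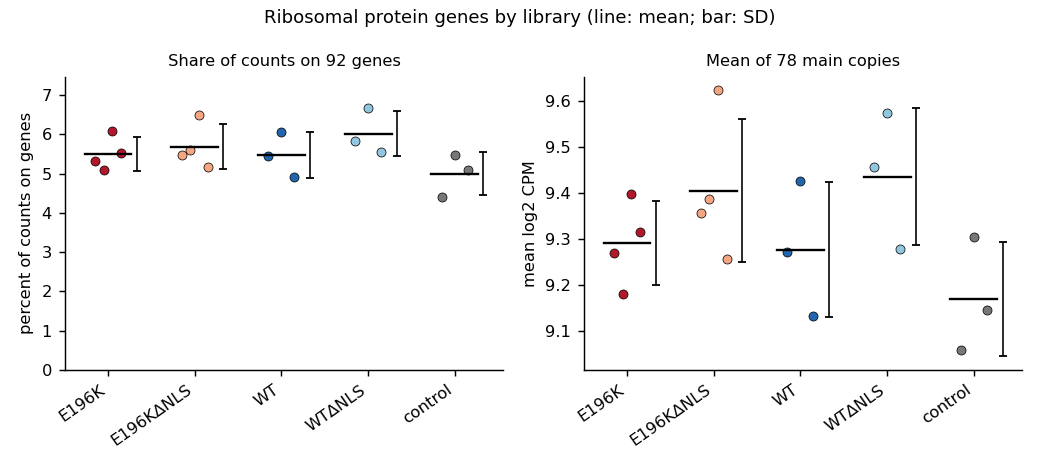
Share of counts on the 92 ribosomal protein genes (left, percent of counts on genes) and mean log2 CPM (scaled read count) of the 78 main copies (right, axis not starting at 0), 1 point per library, with the mean as a line and the SD as a bar beside it. The share of the 3 TyrRS-WT∆NLS libraries is 5.56% to 6.66%, above the control range of 4.42% to 5.49%, while the other genotypes overlap control; in the mean log2 CPM all genotypes overlap control.

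Levels are given below as CPM, which is read count scaled to a common library size (the counts on genes times the TMM factor). Over all libraries 80 of the 92 genes averaged at least 100 CPM, 4 averaged between 1 and 100 CPM, and 8 averaged less than 1 CPM. The main copies ran between 173 CPM for RpS14b, a protein of the small subunit platform, and 1978 CPM for RpL5, which carries the 5S ribosomal RNA into the large subunit. Their median was 669 CPM. Per kilobase of exon the highest mean levels belonged to 3 genes with short transcripts: RpL41, which encodes a peptide of the large subunit, at 2319 CPM per kb, RpL39, a small protein of the exit tunnel, at 1355 CPM per kb, and RpL23, at 1351 CPM per kb. The lowest levels per kilobase were those of RpL7-like, RpL10Aa and RpS28-like, each with no more than 2 counts in all libraries together. Of the 92 genes, 12 shared at least 10% of their exonic length with another gene. The overlap was largest for RpL7-like (98.8%, with CG34164), RpS9 (50.3%, with an antisense RNA) and RpL22 (34.3%, with a non-coding RNA). The libraries do not mark strand, and reads that fell on more than 1 gene were tallied apart as ambiguous, at 4.87% to 6.32% in a library. Counts of overlapping genes may therefore miss reads, also where the partner is antisense.

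The main copies varied together from library to library. After the genotype means were removed, the correlation of log2 CPM over the 17 libraries had a median of 0.82 among the 3003 pairs of main copies, and 99.97% of pairs were above 0. The pairs share libraries, depth and scaling, so that this is a description. Because the main copies vary together, the counts of them given below, above 0 or without overlap, are not independent. RpS14b followed the others least, with a median correlation of 0.22, and RpL5 and RpL3 came next, at 0.53 and 0.55. RpS30, a small subunit protein made as a fusion with a ubiquitin-like protein, followed the others most closely, at 0.90. The typical main copy had a within-genotype SD of 0.14 on the log2 scale, which sets the size of change that 3 or 4 libraries can resolve.

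The first question was whether expression of the mutant changed the ribosomal protein genes. In TyrRS-E196K brains RpL8, a large subunit protein near the catalytic centre, was higher than in control, and RpL37b, a paralogue of RpL37a with very few reads, was lower. No other gene of the 92 passed an adjusted p of 0.05 in edgeR's quasi-likelihood test, adjusted over all 16163 genes. The 2 genes called are 2.17% of the family, against 6.35% of all genes tested (3.03% higher and 3.32% lower). The main copies leaned upwards by little: 70 of 78 had a log2 fold change above 0, where 49.1% of all genes did, and their median was 0.13, against 0.00 over all genes and 0.03 over the 2205 genes above 100 CPM. The median over the 92 genes, also 0.13, was 0.06 without control 1, 0.08 without TyrRS-E196K 3 and 0.19 without control 2. An unadjusted p under 0.05 was found for 9 of the 78 main copies, where 3240 of all 16163 genes had one. The 6 glial markers summed to between 2448 and 2788 CPM in TyrRS-E196K, against 2796 to 3070 CPM in control, and 2 of them, alrm and wrapper, were called lower. The retina markers (8 of 8) and fat body markers (5 of 5) also had log2 fold changes below 0. Their summed CPM overlapped control, and none of them was called. The part of these tissues in the ribosomal protein levels was not tested.

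RpL8 had 1141, 1135, 1318 and 1199 CPM in TyrRS-E196K brains, against 793, 1005 and 876 CPM in control brains. All 4 mutant libraries lay above the highest control library. The log2 fold change was 0.43 (SE 0.13, edgeR adjusted p = 0.0498). The call was lost in 14 of 25 alternatives, among them each fit without 1 of the 4 TyrRS-E196K libraries and the fits without control 1 or control 3. Of 92 genes, the libraries of the 2 genotypes did not overlap for 5 that were higher and 1 that was lower, where 8.77% of all genes were higher and 8.55% lower without overlap.

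In TyrRS-E196K∆NLS brains, where the mutant carries the disrupted signal, 8 main copies were higher than in control and RpL37b was lower. Among them were the small subunit genes RpS24, RpS13 and RpS3A, the large subunit genes RpL15 and RpL7, and the stalk gene RpLP1, which helps to recruit elongation factors. The changes were small, between 1.27-fold for RpS3A and 1.43-fold for RpS24. The 9 calls are 9.78% of the family, against 4.79% of all genes tested (2.63% higher and 2.16% lower). All genes tested are an unlike background: 2205 of the 16163 averaged above 100 CPM, against 80 of the 92 members. For no comparison was a share of calls, or of genes without overlap, taken among genes of like level. Of the 78 main copies 75 had a log2 fold change above 0, with a median of 0.25, where 49.4% of all genes were above 0 and the median of the genes above 100 CPM was 0.03. The lean was shared by both subunits: the median was 0.25 over the 44 large subunit genes and 0.27 over the 31 small subunit genes. For 36 of the 92 genes every TyrRS-E196K∆NLS library lay above every control library, and for 1 gene below, against 7.85% and 7.13% of all genes. An unadjusted p under 0.05 in the edgeR test was found for 48 of the 92 genes, against 16.1% of all genes. These genes vary together, so such counts and the 2 subunit medians are not independent. By library, the mean log2 CPM of the main copies was 9.26 to 9.62, which overlapped the control range of 9.06 to 9.30.

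RpS24 (FBgn0261596), a small subunit protein whose human counterpart is needed to mature the small subunit RNA, had 632, 611, 687 and 604 CPM in TyrRS-E196K∆NLS brains, against 397, 477 and 451 CPM in control brains. The lowest ∆NLS library lay well above the highest control library. The log2 fold change of RpS24 was 0.52 (SE 0.09, edgeR adjusted p = 0.00195), and the call stood in all 25 alternatives. RpS24 was also called in TyrRS-WT∆NLS brains, which had 641, 653 and 516 CPM against the same control libraries, with a log2 fold change of 0.45 (SE 0.10, edgeR adjusted p = 0.0140). There the call was lost without control 1, without TyrRS-WT∆NLS 1, without TyrRS-WT∆NLS 2 and when only the 2 genotypes were fitted. The unnumbered library was the lowest of the 3 and still lay above all 3 controls.

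RpS3A (FBgn0017545), the only one of the 92 genes on the small dot chromosome (chr4:65225-67207 on BDGP6, minus strand), had 1208, 1199, 1412 and 1190 CPM in TyrRS-E196K∆NLS brains, against 982, 1033 and 937 CPM in control brains. It had 1309, 1279 and 1245 CPM in TyrRS-WT∆NLS brains. All 7 ∆NLS libraries lay above all 3 control libraries. The log2 fold changes were 0.35 (SE 0.09, edgeR adjusted p = 0.0370) in the mutant and 0.38 (SE 0.10, edgeR adjusted p = 0.0410) in the wild type, and these calls were lost in 12 and 14 of 25 alternatives.

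RpLP1 had 1105, 1158, 1289 and 1036 CPM in TyrRS-E196K∆NLS brains, against 806, 868 and 839 CPM in control brains. There was no overlap, and the log2 fold change was 0.45 (SE 0.11, edgeR adjusted p = 0.0237). RpLP0, the base of the stalk, averaged 1045 ± 59.7 CPM in TyrRS-E196K∆NLS brains and 922 ± 113 CPM in control brains (SD, n = 4 and 3), and RpLP2, the partner of RpLP1, averaged 574 ± 114 CPM in TyrRS-E196K∆NLS brains and 603 ± 115 CPM in control brains. Neither passed the test (edgeR adjusted p = 0.403 and 0.925).

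RpS13, RpL15 and RpL7 were also higher. RpS13 had 596, 579, 651 and 556 CPM in TyrRS-E196K∆NLS brains, against 397, 512 and 432 CPM in control brains. RpL15 had 933, 901, 1044 and 849 CPM in TyrRS-E196K∆NLS brains, against 677, 726 and 753 CPM in control brains. For both genes the genotypes did not overlap, and the log2 fold changes were 0.41 (SE 0.10) for RpS13 and 0.37 (SE 0.10) for RpL15, with edgeR adjusted p = 0.0192 and 0.0316. RpL7 (0.36 on the log2 scale) also did not overlap with control, and it stood closest to the threshold (edgeR adjusted p = 0.0490). Its call was lost in 20 of 25 alternatives.

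**Figure D2:**
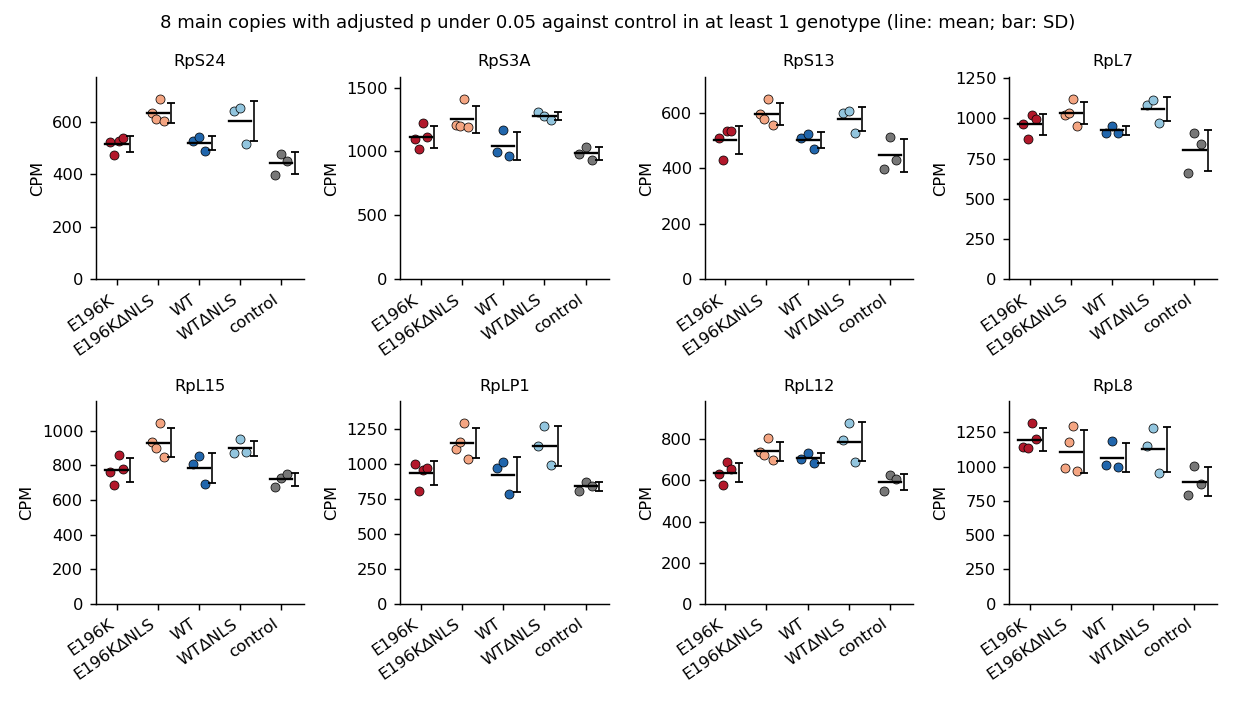
CPM in each library for 8 main copies with an adjusted p under 0.05 against control in at least 1 genotype, 1 point per library, with the mean as a line and the SD as a bar, axes starting at 0. RpS24 sits at 604 to 687 CPM in TyrRS-E196K∆NLS and at 397 to 477 CPM in control. Its TyrRS-E196K libraries (473 to 539 CPM) overlap control and lie below all TyrRS-E196K∆NLS libraries.

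How many of these genes were called turned on single libraries. Without control 1, without control 3, without TyrRS-E196K∆NLS 2 or without TyrRS-E196K∆NLS 3, 2 of the 92 genes were called (RpS24 and RpL37b), and without control 2 the count was 13. With library totals in place of TMM it was also 2, of which 1 was higher, and the median over the 92 genes was 0.17, against 0.24 with TMM, while the median over all genes was −0.05, against 0.00 with TMM. In the TyrRS-E196K∆NLS libraries transcripts of other tissues moved as well. The 5 fat body markers (Yp1, Yp2, Yp3, Lsp2 and Rfabg) summed to between 39348 and 53171 CPM, against 28593 to 35724 CPM in control, and 5 of 5 had a log2 fold change above 0. The 5 hemocyte markers summed to between 1034 and 1168 CPM, against 801 to 863 CPM in control, again with 5 of 5 above 0. None of these 10 markers passed the test against control, and their part in the ribosomal protein levels was not tested.

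In TyrRS-WT brains 0 of the 92 genes passed the edgeR test, 6 had an unadjusted p under 0.05, and DESeq2 called 1, which was lower. Over all genes 12.9% had an unadjusted p under 0.05, and DESeq2 called 4.66%. The background was 2.30% of all genes called (1.26% higher and 1.03% lower). The main copies again leaned upwards, with 71 of 78 above 0 and a median log2 fold change of 0.13, where 47.4% of all genes were above 0. Without TyrRS-WT 2 the median over the 92 genes was 0.03, against 0.13 with all libraries. RpS24 had 525, 543 and 488 CPM in TyrRS-WT brains, against 397, 477 and 451 CPM in control brains, and RpS3A had 997, 1167 and 966 CPM, against 982, 1033 and 937 CPM. RpS24 did not overlap with control and RpS3A did. Of the 92 genes 4 were higher and 2 lower without overlap, against 7.59% and 8.14% of all genes. The retina markers, which report photoreceptor tissue left on the brain, summed to between 8204 and 10382 CPM in TyrRS-WT brains, against 14848 to 19062 CPM in control brains, with 8 of 8 lower without overlap. The glial markers summed to between 2417 and 2600 CPM in TyrRS-WT brains, against 2796 to 3070 CPM in control brains, with 5 of 6 below 0 and 4 lower without overlap. None of these markers passed the test, and the part of either tissue in these levels was not tested.

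In TyrRS-WT∆NLS brains RpS24, RpS3A and RpL12, a large subunit protein at the foot of the stalk, were higher than in control, as was RpLP0-like, and RpL37b was lower. The 5 calls are 5.43% of the family, against 3.84% of all genes tested (2.39% higher and 1.45% lower). RpL12 had 797, 879 and 692 CPM in TyrRS-WT∆NLS brains, against 550, 627 and 605 CPM in control brains, without overlap. The log2 fold change of RpL12 was 0.41 (SE 0.10, edgeR adjusted p = 0.0223). In TyrRS-E196K∆NLS the same gene stood at 0.32 with an adjusted p of 0.0507 in edgeR. Of the 78 main copies 77 were above 0 with a median of 0.27, where 47.3% of all genes were above 0. Of the 92 genes 41 were higher without overlap and 2 lower, against 10.0% and 8.45% of all genes. An unadjusted p under 0.05 in the edgeR test was found for 51 of the 92, against 16.6% of all genes. These counts are not independent, because the genes vary together. By library, the mean log2 CPM of the main copies was 9.28 to 9.57, which overlapped the control range of 9.06 to 9.30.

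The call of RpL12 was lost without control 1, without control 3, without TyrRS-WT∆NLS 1 and without TyrRS-WT∆NLS 2. Without control 1 no gene of the 92 was called, without control 3 the count was 1, without control 2 it was 19, and without the unnumbered library it was 11. The median over the 92 genes, 0.26, moved between 0.19 and 0.34 when single libraries were dropped, in 17 fits. The 6 neuronal markers had log2 fold changes below 0 in this comparison. They summed to between 5082 and 6684 CPM in TyrRS-WT∆NLS, against 5697 to 8043 CPM in control. The retina markers were also below 0, in 8 of 8. They summed to between 12016 and 16385 CPM in TyrRS-WT∆NLS, against 14848 to 19062 CPM in control. None of these markers passed the test, and their part was not tested. DESeq2 called 27 of the 92 genes in this comparison and 26 in TyrRS-E196K∆NLS against control, where edgeR called 5 and 9; all of the edgeR calls were among them, and DESeq2 called 6.89% and 6.92% of all genes.

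**Figure D3:**
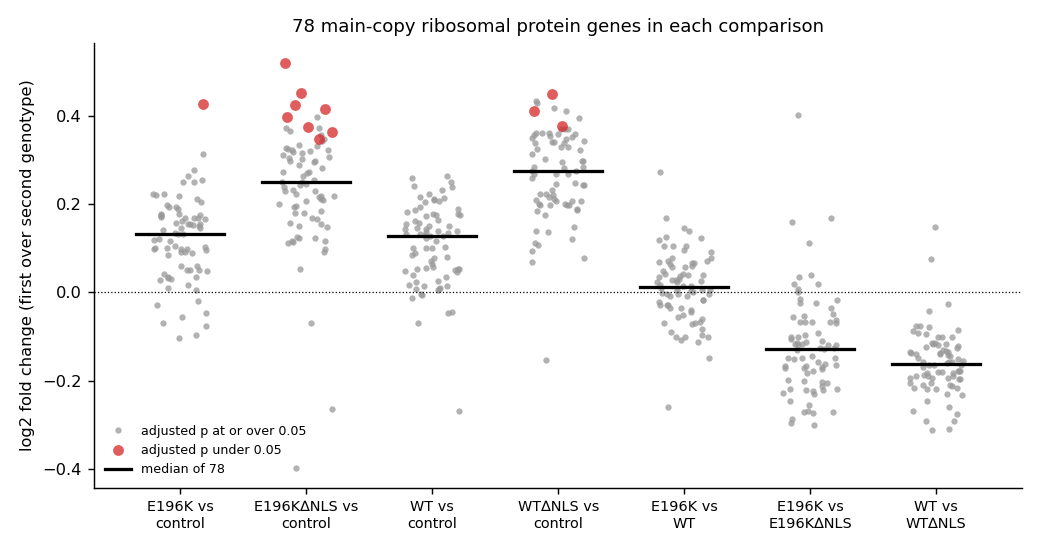
Log2 fold change of each of the 78 main copies in the 7 comparisons (first genotype over second), with genes past an adjusted p of 0.05 in red and the median as a black line. The medians are 0.13, 0.25, 0.13 and 0.27 for the 4 transgenic genotypes over control, 0.01 for TyrRS-E196K over TyrRS-WT, and −0.13 and −0.16 for the forms with an intact nuclear signal over their ∆NLS forms.

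TyrRS-E196K was also compared with TyrRS-WT, which differs from it in the mutation and in copy number, 1 against 2, so that mutation and copy number cannot be told apart. For the ribosomal protein genes 0 of 92 passed the edgeR test and 0 had an unadjusted p under 0.05, and DESeq2 called 0, with 1.62% of all genes called by edgeR (0.687% higher and 0.934% lower). The median log2 fold change over the main copies was 0.01, and 45 of 78 were above 0, against 48.9% of all genes. No member was higher or lower without overlap, against 5.66% and 6.39% of all genes. The direction of the median rested on single libraries: over the 92 genes it was −0.05, with 26 above 0, without TyrRS-WT 3 and 0.08, with 70 above 0, without TyrRS-WT 2, and it was −0.01 without TyrRS-E196K 3. The retina markers summed to between 10280 and 19160 CPM in TyrRS-E196K, against 8204 to 10382 CPM in TyrRS-WT, with 8 of 8 above 0, and their part was not tested. The main copies ranged between −0.26 for RpS21, a small subunit protein, and 0.27 for RpL22, a large subunit protein with a long fly-specific extension. RpS21 averaged 218 ± 24.9 CPM in TyrRS-E196K brains and 261 ± 24.2 CPM in TyrRS-WT brains (SD, n = 4 and 3), and the libraries overlapped.

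The last 2 comparisons set each form with an intact nuclear signal against its ∆NLS form, and they share no library. Between TyrRS-E196K and TyrRS-E196K∆NLS 0 of 92 genes passed the edgeR test, 20 had an unadjusted p under 0.05, and DESeq2 called 9, all lower in TyrRS-E196K, with 5.60% of all genes called by edgeR (2.49% higher and 3.11% lower). Over all 16163 genes 2906 had an unadjusted p under 0.05 and DESeq2 called 9.04%, so that both counts of members lay near the share of all genes. Between TyrRS-WT and TyrRS-WT∆NLS 0 passed, 11 had an unadjusted p under 0.05, and DESeq2 called 0, with 1.20% of all genes called by edgeR (0.643% higher and 0.557% lower) and 9.38% at an unadjusted p under 0.05. The main copies leaned downwards in both: 69 of 78 were below 0 in the first, with a median of −0.13, and 76 of 78 in the second, with a median of −0.16, where 49.4% and 48.9% of all genes were above 0. In the first 0 of the 92 genes were higher and 11 lower without overlap, against 6.24% and 6.86% of all genes, and in the second 0 and 11, against 6.64% and 6.84%. The lean in the first was weaker with library totals in place of TMM, where the median over the 92 genes was −0.05 in place of −0.12, with 0.07 over all genes. Without TyrRS-E196K∆NLS 3 it was −0.06. In the second comparison the median over the 92 genes was −0.16 with all libraries, −0.08 without TyrRS-WT∆NLS 2 or without TyrRS-WT 3, and −0.24 without TyrRS-WT 2. The 5 fat body markers summed to between 13618 and 34613 CPM in TyrRS-E196K, against 39348 to 53171 CPM in TyrRS-E196K∆NLS, and the 5 hemocyte markers to between 481 and 807 CPM, against 1034 to 1168 CPM. All 10 were below 0, and Rfabg and Hml passed the test, as did the glial marker alrm, also lower in TyrRS-E196K. In the second comparison the retina markers summed to between 8204 and 10382 CPM in TyrRS-WT, against 12016 to 16385 CPM in TyrRS-WT∆NLS, with 8 of 8 below 0 and 6 lower without overlap, and 5 of 5 germline markers were below 0; none passed the test. The part of these tissues in the ribosomal protein levels was not tested. Across the 78 genes the 2 sets of log2 fold changes had a Pearson correlation of 0.22 and a Spearman correlation of 0.17, given as a description because the genes vary together. Copy number differed 1 to 3 in the first comparison and was equal in the second.

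RpS24 came nearest to the threshold among the main copies in TyrRS-E196K against TyrRS-E196K∆NLS, at −0.30 (SE 0.09, edgeR adjusted p = 0.0501). It had 524, 473, 526 and 539 CPM in TyrRS-E196K brains, against 632, 611, 687 and 604 CPM in TyrRS-E196K∆NLS brains, with no overlap. RpS27A, which is made as a fusion of ubiquitin with a small subunit protein, had 553, 506, 576 and 534 CPM in TyrRS-E196K brains, against 668, 629, 713 and 612 CPM in TyrRS-E196K∆NLS brains. It too did not overlap, at −0.27 (SE 0.08, edgeR adjusted p = 0.0575). A test of whether the effect of the signal differed between mutant and wild type called 0 of the 92 genes, against 1.53% of all genes, and the median difference over the 92 genes was 0.03 on the log2 scale.

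Tested over the 5 genotypes at once, 7 of the 92 genes differed, or 7.61%, against 10.0% of all genes. They were RpL37b, RpS24, RpL12, RpLP1, RpS13, RpS3A and RpS5b. RpL37b and RpS24 were called in every fit that left out 1 library.

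Not every main copy leaned upwards. RpL22 had 174, 225, 299 and 119 CPM in TyrRS-E196K∆NLS brains, against 342, 275 and 190 CPM in control brains, at −0.40 (SE 0.34, edgeR adjusted p = 0.632). RpS21 averaged 195 ± 27.5 CPM in TyrRS-E196K∆NLS brains and 234 ± 31.8 CPM in control brains (SD, n = 4 and 3), at −0.26 (SE 0.14, edgeR adjusted p = 0.366). Both genes overlapped with control, and RpL22 ranged between 119 and 299 CPM within TyrRS-E196K∆NLS alone. RpLP2 was the third gene below 0 in this comparison.

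RpS6, RpL40 and RpL41 did not pass the test in any comparison. RpS6, the target of S6 kinase, averaged 1168 ± 96.6 CPM in TyrRS-E196K∆NLS, 1189 ± 113 CPM in TyrRS-WT∆NLS and 968 ± 91.3 CPM in control brains. The ubiquitin fusion RpL40 averaged 649 ± 57.1 CPM in TyrRS-E196K∆NLS, 643 ± 41.6 CPM in TyrRS-WT∆NLS and 553 ± 33.5 CPM in control brains. RpL41 averaged 684 ± 84.3 CPM in TyrRS-E196K, 826 ± 184 CPM in TyrRS-E196K∆NLS and 710 ± 68.3 CPM in control brains (SD, n = 4 for the mutant genotypes and 3 for the others). Of the small subunit components whose names fall outside the symbol pattern, sta, which encodes RpSA, averaged 1407 ± 80.4 CPM in TyrRS-E196K and 1155 ± 123 CPM in control brains, and Rack1, a scaffold for kinases on the ribosome, averaged 1144 ± 45.7 CPM in TyrRS-E196K and 998 ± 117 CPM in control brains (edgeR adjusted p = 0.211 and 0.304).

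RpL37b (FBgn0034822) was called lower in 3 of the 4 transgenic genotypes, on very few reads. It encodes a second copy of the zinc-binding protein made by RpL37a, and is a different gene from RpL37A. It had 3, 0, 2 and 4 counts in TyrRS-E196K libraries, 0, 1, 0 and 1 in TyrRS-E196K∆NLS, 4, 3 and 8 in TyrRS-WT, 3, 2 and 5 in TyrRS-WT∆NLS and 11, 12 and 21 in control. Every transgenic library had fewer counts than every control library, although control 1 was the shallowest library. Pooled over libraries and corrected for depth, the ratio to control was 0.123 in TyrRS-E196K (exact 95% interval 0.0529 to 0.256), 0.0259 in TyrRS-E196K∆NLS (0.00304 to 0.0992, on 2 counts), 0.267 in TyrRS-WT (0.138 to 0.490) and 0.160 in TyrRS-WT∆NLS (0.0718 to 0.323). These intervals cover counting error only. The edgeR adjusted p was 0.00471 in TyrRS-E196K, 0.000205 in TyrRS-E196K∆NLS, 0.107 in TyrRS-WT and 0.0189 in TyrRS-WT∆NLS. The calls in both mutant genotypes stood in all 25 alternatives, and that in TyrRS-WT∆NLS was lost without control 1, without control 3, without TyrRS-WT∆NLS 1 and without TyrRS-WT∆NLS 2. All 4 transgenic genotypes were set against the same 3 control libraries.

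The main copy RpL37a had far more reads and did not pass the test. RpL37a averaged 859 ± 54.5 CPM in TyrRS-E196K, 975 ± 111 CPM in TyrRS-E196K∆NLS, 881 ± 109 CPM in TyrRS-WT, 955 ± 95.2 CPM in TyrRS-WT∆NLS and 790 ± 77.0 CPM in control brains (SD, n = 4, 4, 3, 3 and 3). RpL37b held 0.0366% to 0.0609% of the counts of the pair in control libraries and at most 0.0221% in any transgenic library. A share this small can be changed by a few reads that belong to the similar main copy, and how reads of the pair were split was not tested.

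**Figure D4:**
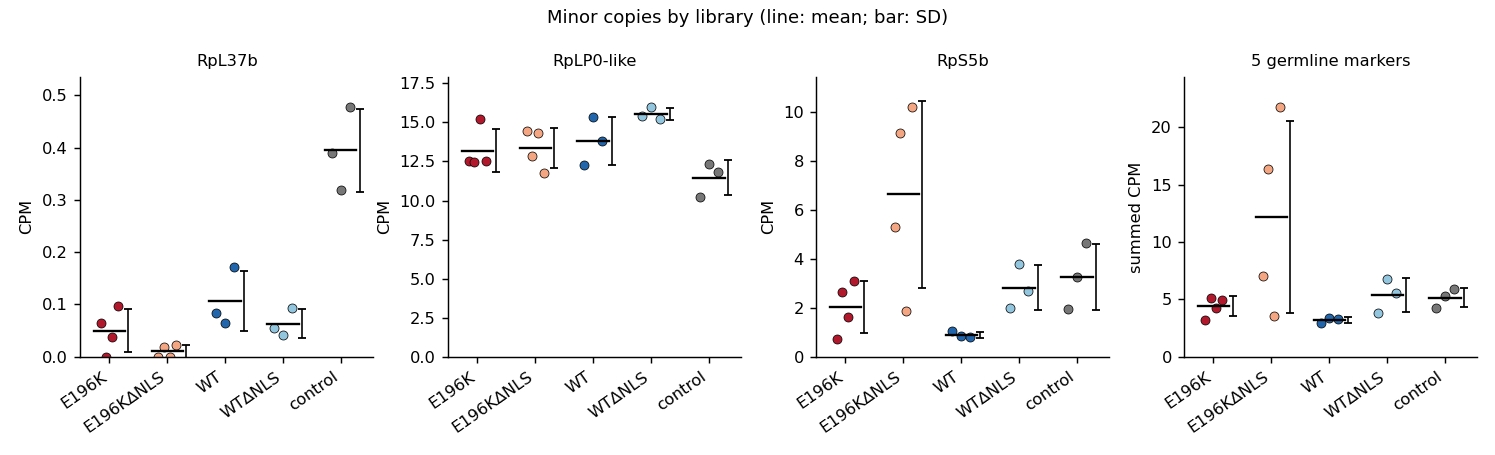
CPM of the minor copies RpL37b, RpLP0-like and RpS5b and the summed CPM of 5 germline markers, 1 point per library, with the mean as a line and the SD as a bar, axes starting at 0. RpL37b lies at 0.318 to 0.477 CPM in control and at no more than 0.172 CPM in any transgenic library, and the RpS5b and germline panels share their high TyrRS-E196K∆NLS libraries.

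RpS5b, a copy of RpS5a that is expressed mainly in the ovary, had 35, 111, 84 and 127 counts in TyrRS-E196K libraries, 233, 488, 92 and 470 in TyrRS-E196K∆NLS, 50, 39 and 38 in TyrRS-WT, 107, 186 and 143 in TyrRS-WT∆NLS and 55, 122 and 204 in control. The 3 TyrRS-WT libraries were the most alike, at 0.819 to 1.04 CPM, and the 4 TyrRS-E196K∆NLS libraries the most spread, at 1.85 to 10.2 CPM. RpS5b differed among the 5 genotypes (edgeR adjusted p = 0.0378) and passed in none of the 7 pairwise comparisons. The germline markers vas, nos, bam, zpg and aub summed to 7.02, 16.3, 3.59 and 21.8 CPM in the 4 TyrRS-E196K∆NLS libraries and to between 4.24 and 5.91 CPM in control, and the 4 TyrRS-E196K∆NLS libraries fell in the same order for RpS5b and for these markers. In TyrRS-WT the germline markers summed to between 2.90 and 3.40 CPM, and zpg was at 0 in 2 of the 3 libraries. In TyrRS-E196K they summed to between 3.22 and 5.16 CPM, and zpg and bam were at 0 in TyrRS-E196K 1. The part of germline tissue in the level of RpS5b was not tested. RpS5a averaged 684 ± 58.7 CPM in TyrRS-E196K∆NLS, 705 ± 71.8 CPM in TyrRS-WT∆NLS and 528 ± 97.0 CPM in control brains.

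RpLP0-like, a relative of RpLP0 whose yeast counterpart Mrt4 holds the place of the stalk base during assembly, had 15.4, 16.0 and 15.2 CPM in TyrRS-WT∆NLS brains, against 10.2, 12.4 and 11.8 CPM in control brains. The genotypes did not overlap, and the log2 fold change was 0.44 (SE 0.11, edgeR adjusted p = 0.0323). The call was lost without control 1, without control 3, without each TyrRS-WT∆NLS library in turn, with library totals and when only the 2 genotypes were fitted. RpL24-like, a relative of RpL24 whose yeast counterpart Rlp24 also acts in assembly, averaged 206 ± 13.1 CPM in TyrRS-WT∆NLS and 167 ± 12.8 CPM in control brains (SD, n = 3 each) and did not pass (edgeR adjusted p = 0.186).

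RpS14a and RpS14b, adjacent genes on the X chromosome with near-identical products, were both well expressed, and RpS14a took 61.7% to 72.3% of their joint counts over the 17 libraries, so it is minor only by its place in the list. Reads that fit both genes may have been lost or split in counting. RpL34a took 17.7% to 23.2% of its pair with RpL34b, and RpS15Ab took 3.02% to 3.88% of its pair with RpS15Aa. None of these 3 copies passed in any comparison. RpS10a, a relative of RpS10b, had 9 to 36 counts in a library, at most 0.118% of its pair. RpS19b, RpS28a and RpL22-like, the relatives of RpS19a, RpS28b and RpL22, had 0 to 3, 0 to 6 and 0 to 3 counts in a library. RpL10Aa had 1 count in all 17 libraries, RpS28-like 1 and RpL7-like 2, which is too little to compare genotypes.

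Length and level were compared with the size of the change. Across the 78 main copies, the log2 fold change had a Spearman correlation with exonic length of 0.32 in TyrRS-E196K over control, −0.00 in TyrRS-E196K∆NLS, 0.11 in TyrRS-WT and 0.13 in TyrRS-WT∆NLS. With mean CPM the same correlations were 0.38, 0.28, 0.27 and 0.34. These are descriptions across genes that share libraries.

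Genes of other parts of the translation machinery were tested in the same fit. Of 30 ribosome biogenesis genes, 11 were higher in TyrRS-E196K than in control, 8 in TyrRS-E196K∆NLS, 2 in TyrRS-WT and 12 in TyrRS-WT∆NLS, where 3.03%, 2.63%, 1.26% and 2.39% of all genes were higher. The medians of the list were 0.25, 0.19, 0.23 and 0.39. These counts turned on single libraries except in TyrRS-WT∆NLS, where 10 or more of the 12 calls stood in every fit that dropped 1 library. Without control 3, 6 of the 11 calls in TyrRS-E196K and 2 of the 8 in TyrRS-E196K∆NLS stood. Of the 11, 7 stood without control 1, without TyrRS-E196K 2 or 3 and without TyrRS-E196K∆NLS 2 or 3. Of the 8, 3 stood without control 1 or without TyrRS-E196K∆NLS 3, 4 without TyrRS-E196K∆NLS 2 and 5 without TyrRS-E196K∆NLS 1. Of the 2 calls in TyrRS-WT, 0 stood without control 1 or TyrRS-WT 2, and 1 without control 2 or control 3. Nop60B, the pseudouridine synthase of ribosomal RNA, had 39.4, 34.4, 37.6 and 35.2 CPM in TyrRS-E196K, 38.1, 41.5, 37.7 and 38.9 CPM in TyrRS-E196K∆NLS and 47.1, 41.1 and 39.2 CPM in TyrRS-WT∆NLS brains, against 21.9, 26.6 and 24.7 CPM in control brains. None of these 11 libraries overlapped with control. The 3 TyrRS-WT libraries also lay above all 3 control libraries for Nop60B. In TyrRS-E196K, TyrRS-E196K∆NLS and TyrRS-WT∆NLS its log2 fold changes were 0.59 (SE 0.09), 0.68 (SE 0.09) and 0.80 (SE 0.10). The edgeR adjusted p was 0.000725, 0.000117 and 6.31e-05, and these 3 calls stood in all 25 alternatives. Fib, the methyltransferase fibrillarin, and nop5, its partner in box C/D particles, were up by 0.82 (SE 0.15) and 0.88 (SE 0.17) in TyrRS-E196K and by 0.92 (SE 0.16) and 1.06 (SE 0.18) in TyrRS-WT∆NLS, with edgeR adjusted p between 0.00339 and 0.00686. The call of nop5 in TyrRS-E196K was lost without control 3. The rise was not confined to those genotypes. The log2 fold change of nop5 was 0.81 in TyrRS-E196K∆NLS and 0.54 in TyrRS-WT, the largest of the list in each. Fib was also above control on average in both.

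Of 14 elongation and associated genes, 4 were higher in TyrRS-E196K, 6 in TyrRS-E196K∆NLS, 2 in TyrRS-WT and 5 in TyrRS-WT∆NLS. Of all genes 3.03%, 2.63%, 1.26% and 2.39% were higher, in the same order. Ef1alpha48D, which delivers aminoacyl-tRNA to the ribosome, averaged 5929 ± 644 CPM in TyrRS-E196K, 6251 ± 375 CPM in TyrRS-E196K∆NLS, 5495 ± 1110 CPM in TyrRS-WT, 5812 ± 244 CPM in TyrRS-WT∆NLS and 3553 ± 497 CPM in control brains (SD, n = 4, 4, 3, 3 and 3). It passed in each genotype, at 0.74 (SE 0.14), 0.82 (SE 0.14), 0.63 (SE 0.15) and 0.71 (SE 0.15), with edgeR adjusted p = 0.00334, 0.00115, 0.0269 and 0.00893. EF2, the translocase, averaged 2831 ± 129 CPM in TyrRS-E196K, 3027 ± 99.8 CPM in TyrRS-E196K∆NLS, 2758 ± 211 CPM in TyrRS-WT, 2958 ± 96.7 CPM in TyrRS-WT∆NLS and 2087 ± 137 CPM in control brains, and it passed in each. In TyrRS-WT the calls of Ef1alpha48D and EF2 were lost without control 1, without control 3 and without TyrRS-WT 3, that of EF2 also without TyrRS-WT 1, without TyrRS-WT 2 and without TyrRS-E196K∆NLS 2, and in TyrRS-WT∆NLS that of Ef1alpha48D was lost without control 3. Of the 5 calls in TyrRS-WT∆NLS, 2 stood without control 3 and 3 without control 1. eIF-5A, which relieves stalled ribosomes, separated the 2 forms of the mutant: it had 352, 330, 384 and 392 CPM in TyrRS-E196K brains, against 488, 450, 525 and 459 CPM in TyrRS-E196K∆NLS brains, at −0.40 (SE 0.08, edgeR adjusted p = 0.00452).

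**Figure D5:**
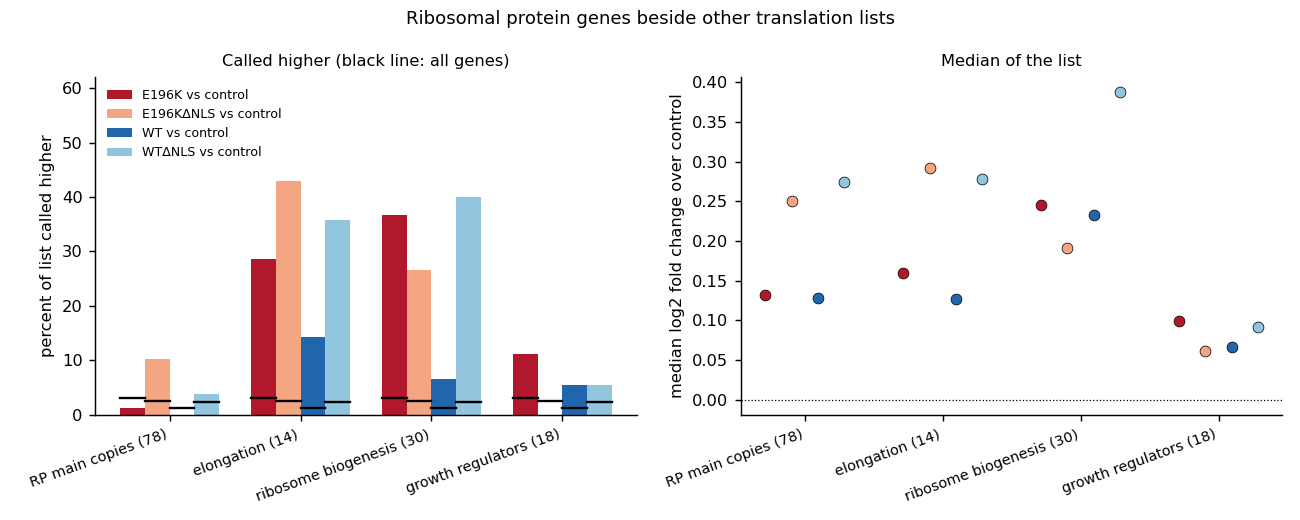
Percent of each list called higher than control (left, black lines give the percent of all genes called higher in the same comparison) and median log2 fold change of each list over control (right), by genotype. Of the 78 main copies 1, 8, 0 and 3 are called higher in TyrRS-E196K, TyrRS-E196K∆NLS, TyrRS-WT and TyrRS-WT∆NLS, and of the 30 biogenesis genes 11, 8, 2 and 12.

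Of 18 growth and ribosomal protein regulators, 2 were higher in TyrRS-E196K (Xrp1 and PEK) and 0 in TyrRS-E196K∆NLS. In TyrRS-WT 1 was higher (gig, which encodes Tsc2), and in TyrRS-WT∆NLS 1 (Xrp1). The shares of all genes called higher were 3.03%, 2.63%, 1.26% and 2.39%, in the same order. In TyrRS-E196K∆NLS 4 of the 18 had an unadjusted p under 0.05, where 16.1% of all genes did. The call of PEK was lost in 10 of 25 alternatives, among them each fit without a control library, and that of gig in 6 of 25, among them each fit without a TyrRS-WT library. Xrp1, a transcription factor that acts in cells with a reduced dose of ribosomal protein genes, had 580, 558, 571 and 625 CPM in TyrRS-E196K and 645, 572 and 672 CPM in TyrRS-WT∆NLS brains, against 397, 412 and 344 CPM in control brains. Both genotypes lay above control without overlap, at 0.60 (SE 0.12, edgeR adjusted p = 0.00540) and 0.71 (SE 0.13, edgeR adjusted p = 0.00328), and both calls stood in all 25 alternatives. In TyrRS-WT brains the log2 fold change of Xrp1 was 0.39, the largest of the list. It was not called there, and the libraries overlapped with control. In TyrRS-E196K∆NLS brains Xrp1 had 388, 445, 395 and 520 CPM, which overlapped with control. TyrRS-E196K was higher than TyrRS-E196K∆NLS, at 0.42 (SE 0.11, edgeR adjusted p = 0.0318), and this call was lost without each of the 4 TyrRS-E196K libraries and without TyrRS-E196K∆NLS 1, 2 or 3. The genes dm (Myc), Tor and S6k did not pass in any comparison.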

How the data were processed

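The authors trimmed 75 bp paired-end reads of unstranded poly(A) libraries with Trimmomatic 0.32, aligned them to BDGP6 with TopHat2 2.0.12 and counted them per gene with HTSeq 0.6.1; the study removed 3 outlier libraries and used DESeq2 1.14.1 with a batch factor. The deposited values are raw counts per gene for 17 libraries, and no value column lay outside the 17. Depth was 29380481 to 56030758 counts on genes, which leaves the spread between libraries as the main error for genes above 100 CPM and counting error for genes with few reads. Exact intervals cover counting error only.

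Genes with a count in at least 1 library (16163) were tested with edgeR 4.0.16 (R 4.3.3): TMM factors, 1 quasi-likelihood fit of all 17 libraries with robust dispersion, p-values adjusted by Benjamini-Hochberg over all genes, threshold 0.05. The standard error is the log2 fold change divided by the root of F. The test was first tested on simulated counts. No batch term could be fitted because batches were not given per library in the sources used here. Coordinates came from an Ensembl annotation of the BDGP6 assembly, with 87 of the 92 genes matched by identifier and 5 by symbol.

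The genes named were the called members (some items are not reported here), every minor copy with its main copy, the stalk genes, RpS27A, RpL40, RpS6 and RpL41, the 3 highest and 3 lowest by CPM per kilobase, sta, Rack1 and up to 5 called genes of each other list; RpS21, RpL22, RpL5, RpL3, RpS30, RpS9, dm, Tor and S6k were added after their values were seen. Members and lists were chosen with earlier results of these data known. Alternatives were DESeq2 1.42.0, other scalings, a count filter, the 2 genotypes alone, a replicate block, 1 surrogate variable (sva 3.50.0) and each library left out. Figures were drawn with matplotlib 3.10.9.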

Additional observations from a re-analysis of the deposited data

Results flagged for a closer look

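Among the 78 groups of 4 libraries examined, over 39 quantities, 5 had 1 library far from the other 3 by Dixon's criterion, which chance alone does in about 1 group in 20. TyrRS-E196K 3 was high for RpL41 at 809 CPM (others 630 to 657 CPM), for RpLP0-like at 15.2 CPM (others 12.5 to 12.6 CPM), for RpS15Ab at 22.5 CPM (others 19.9 to 20.3 CPM) and for RpS28b at 616 CPM (others 532 to 535 CPM). TyrRS-E196K∆NLS 3 was high for RpS3A at 1412 CPM (others 1190 to 1208 CPM). Without TyrRS-E196K∆NLS 3 RpS3A was no longer called against control. The same held without each other TyrRS-E196K∆NLS library and without each control library.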

How the results depend on the processing

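No called gene changed direction in any alternative; the median of TyrRS-E196K against TyrRS-WT, 0.01 over the 92 genes, was −0.05 without TyrRS-WT 3 and 0.08 without TyrRS-WT 2. Of the 92 genes, DESeq2 called 4 in TyrRS-E196K, 26 in TyrRS-E196K∆NLS, 1 in TyrRS-WT and 27 in TyrRS-WT∆NLS against control, 9 between TyrRS-E196K and TyrRS-E196K∆NLS and 29 over the 5 genotypes. DESeq2 called 10.1%, 6.92%, 4.66% and 6.89% of all genes against control in the same order and 9.04% between TyrRS-E196K and TyrRS-E196K∆NLS. With a count filter (11493 genes, 86 members) the counts were 14 in TyrRS-E196K∆NLS, 10 in TyrRS-WT∆NLS, 3 between TyrRS-E196K and TyrRS-E196K∆NLS and 11 over the 5 genotypes. With library totals they were 1 in TyrRS-E196K, 2 in TyrRS-E196K∆NLS and 2 over the 5 genotypes, and with TMM factors made without these genes 1 in TyrRS-E196K. Fitting only the 2 genotypes gave 1 in TyrRS-E196K, 3 in TyrRS-E196K∆NLS, 1 in TyrRS-WT and 1 in TyrRS-WT∆NLS against control, 2 between TyrRS-E196K and TyrRS-E196K∆NLS and 1 between TyrRS-WT and TyrRS-WT∆NLS. With 1 surrogate variable 17 were called in TyrRS-E196K∆NLS and 1 between TyrRS-E196K and TyrRS-E196K∆NLS. Leaving out 1 library gave 1 to 4 in TyrRS-E196K, 2 to 13 in TyrRS-E196K∆NLS, 0 to 0 in TyrRS-WT and 0 to 19 in TyrRS-WT∆NLS against control, 0 to 1 between TyrRS-E196K and TyrRS-E196K∆NLS and 2 to 13 over the 5 genotypes. Where no share of all genes is given beside a count, the count describes the processing and is not a result about the members. The cause of the differences between settings was not tested. Depth limits RpL37b and the other copies below 1 CPM.

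Same-numbered libraries did not deviate together on average (mean correlation −0.01 over 27 pairs, 0.00 over 74 other pairs). Single pairs ran from −0.56 to 0.49 and from −0.58 to 0.59. Because removed outliers shift the numbering between genotypes, this check cannot find a pairing or batch that follows another order. With the replicate block, in 16 libraries, 2 were called in TyrRS-E196K, 6 in TyrRS-E196K∆NLS, 0 in TyrRS-WT and 6 in TyrRS-WT∆NLS against control and 4 over the 5 genotypes, where the same libraries without the block gave 2, 10, 0, 11 and 8.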
